A study of Drosophila melanogaster with 8 samples.

Results

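RNA bound by the J2 antibody was compared between the cytosolic fractions of dmpnpaseKO and control larvae. The comparison rests on 4 of the 8 libraries sequenced, 2 from each genotype, and runs over all 13970 genes with a deposited value. The members described most closely are the 11 mitochondrial mRNAs and the nuclear-encoded genes that stay above 0 in dmpnpaseKO cytosol replicate 2, 39 in all. The latter were chosen by a value of this same comparison, so their levels are given as a description. Fold changes and adjusted p printed for some of them come from the fit over all tested genes, and nothing is read from them. The 11 mitochondrial mRNAs are those with a deposited value. Not every protein-coding gene of fly mitochondrial DNA is among them, so sums and shares below cover these 11 only.

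Control larvae were labelled ";;" for genotype, and dmpnpaseKO larvae were homozygous for a deletion in exon 2 of CG11337, the gene of polynucleotide phosphorylase (PNPase), which shifts its reading frame. Both lines share the white Dahomey background (wDah), and all larvae were taken at 4 days after egg laying. Whole larvae were fractionated, so the RNA of every larval tissue is mixed in a library. From each fraction 5 μg of RNA was incubated with 5 μg of antibody, and 100 ng of the recovered RNA was made into a directional library and read as paired ends of 42 bp. No label says whether the replicates came from separate cultures or preparations, so every p-value measures the spread between these libraries, which may be technical. Libraries of the same fractions made without antibody were not analysed here, and a value therefore holds both the amount of an RNA and how well J2 retained it.

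J2 recognises double-stranded RNA irrespective of its sequence. Animal mitochondrial DNA is transcribed from both strands into long precursors, whose complementary parts can pair. PNPase is a 3′ to 5′ exoribonuclease of mitochondria, which together with the helicase SUV3 degrades such antisense and surplus RNA. In insects, double-stranded RNA in the cytosol is a substrate of Dicer-2, which opens the antiviral RNA interference pathway.

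The gene of the knockout gave no check of the genotype labels, because PNPase was listed at 0 in all 4 cytosolic libraries. The values are TPM, the share of a library that falls on a gene after correction for its length. Annotated rRNA pseudogenes, which are copies of the nuclear rRNA genes, took 77.1% and 42.7% of TPM in control replicates 1 and 2 and 83.8% and 89.3% in dmpnpaseKO replicates 1 and 2. The mitochondrial rRNAs took 22.8% and 57.1% in controls against 13.8% and 8.50% in dmpnpaseKO larvae. All nuclear-encoded genes outside rRNA stayed between 0.0446% and 0.159% in these libraries. For the fold changes below, each library was scaled on 8 rRNA pseudogenes, with factors of 1.01 and 1.82 in controls against 0.932 and 0.874 in dmpnpaseKO larvae, and changes are differences of log2(scaled TPM + 1), on which the change of weakly expressed genes is compressed.

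The 4 libraries differed in how small an amount of RNA they registered. Genes above 0 numbered 984 and 2093 in the controls, 4736 in dmpnpaseKO replicate 1 and 61 in replicate 2. Of these, 954, 2063, 4704 and 39 were nuclear-encoded genes outside rRNA. The summed share of those genes was nevertheless similar in both dmpnpaseKO libraries, 0.159% over 4704 genes and 0.149% over 39 genes. The number of fragments behind each library is unknown. As a measure of the lower end of the values, TPM was multiplied by transcript length in kilobases for the nuclear-encoded genes with a single annotated transcript length, and the 5th percentile of this product over the genes above 0 is called the detection step. The step was 0.0587 kilobase-TPM in control replicate 1 (204 genes), 0.114 in control replicate 2 (522 genes), 0.0577 in dmpnpaseKO replicate 1 (1380 genes) and 62.1 in dmpnpaseKO replicate 2 (9 genes). For a transcript of 1500 bases this amounts to 0.0391, 0.0757, 0.0385 and 41.4 TPM. The step of dmpnpaseKO replicate 2 was thus 1076 times that of replicate 1, while the steps of control replicate 1 and dmpnpaseKO replicate 1 were nearly the same.

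**Figure D1:**
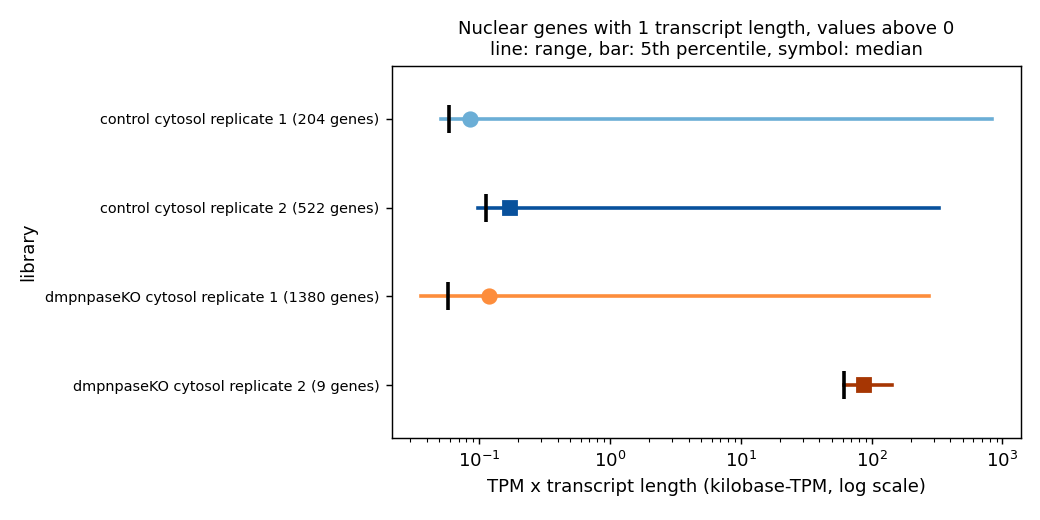
TPM multiplied by transcript length (kilobase-TPM, log axis) for nuclear-encoded genes with 1 transcript length that are above 0 in each cytosolic library, as the range (line), the 5th percentile (black bar) and the median (symbol). The 9 genes of dmpnpaseKO replicate 2 lie between 61.6 and 142, and the 5th percentiles of the other libraries lie between 0.0577 and 0.114.

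Few nuclear-encoded RNAs could be compared in both dmpnpaseKO libraries. Of the 4571 nuclear-encoded genes above 0 in replicate 1 with an annotated length, 4569 had a product below the step of replicate 2 and only 2 reached it, Arc1 (274 kilobase-TPM) and apolpp (756 kilobase-TPM). Both were above 0 in replicate 2. Among these nuclear-encoded genes at 0 in replicate 2, the highest product in replicate 1 was that of Col4a1, which encodes a basement membrane collagen chain. It had 9.26 TPM or 52.2 kilobase-TPM, and the step of replicate 2 was 1.19 times this value. Other classes had zeros from higher levels. ND3 is described below, and 5.8SrRNA-Psi:CR45863 and 28SrRNA-Psi:CR41609 had 2622 and 148 TPM in replicate 1. Of 13 rRNA pseudogenes outside the scaling reference, 10 were above 0 in replicate 1 and 1 in replicate 2. The reason for these zeros was not tested. A 0 in replicate 2 is read below as not detected. Nuclear-encoded genes detected in replicate 2 were more frequent at the upper end of replicate 1. Split into 10 groups of nearly equal size by their product there, 18 of the 458 genes of the highest group (3.93%) were above 0.01 TPM in replicate 2, and in the 9 groups below it between 0% and 0.875%.

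Mitochondrial mRNAs were detected in all 4 libraries with values above the step, except for ND3 in dmpnpaseKO replicate 2. As multiples of the step in that library they ran from 3.48 for ATPase6 and 7.91 for ND1 to 52.7 for ND4 and 61.2 for Cyt-b, and CoI was still higher. ND3 encodes a small subunit of complex I, and its transcript is the shortest of the 11, with 354 bases. It had 2.57 and 9.91 TPM in controls against 198 TPM in dmpnpaseKO replicate 1, and was not detected in replicate 2. Its product in replicate 1 was 70.1 kilobase-TPM, which is 1.13 times the step of replicate 2. The log2 fold change of ND3 was 0.72 with the 0 taken at face value and 4.49 without replicate 2 (limma, adjusted p = 1.0 and 0.0910).

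CoI, CoII and CoIII encode the catalytic core of cytochrome c oxidase (complex IV). CoI (mitochondrial genome, 1474 to 3009) stood at 40.6 and 169 TPM in controls against 9098 and 8082 TPM in dmpnpaseKO larvae. CoIII had 21.6 and 69.0 TPM against 1341 and 976 TPM. CoII (3083 to 3767) had 16.7 and 101 TPM against 1111 and 801 TPM. The genotypes did not overlap for any of the 3 mRNAs, and the lowest dmpnpaseKO value was 47.8 times the highest control value for CoI, 14.2 times for CoIII and 7.93 times for CoII. Cyt-b, the sole mitochondrially encoded subunit of complex III, had 12.8 and 51.8 TPM in controls against 3286 and 3343 TPM in dmpnpaseKO larvae, with the widest gap of all 11 mRNAs (63.5 times). ATPase6, a subunit of the proton channel of ATP synthase, had 6.84 and 33.2 TPM against 592 and 320 TPM, a gap of 9.63 times.

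The other 5 mRNAs encode subunits of complex I. ND2 (240 to 1263) had 2.49 and 13.3 TPM in controls against 788 and 1600 TPM in dmpnpaseKO larvae. ND4 (8207 to 9545, minus strand) had 9.53 and 56.7 TPM against 2747 and 2443 TPM. ND6 had 1.19 and 11.6 TPM against 487 and 1219 TPM. In these 3 mRNAs the lowest dmpnpaseKO library was 59.3, 43.1 and 41.9 times the highest control. ND1 (minus strand) had 5.32 and 18.9 TPM against 782 and 523 TPM, a gap of 27.7 times. ND5 (minus strand) had 10.5 and 77.9 TPM against 853 and 835 TPM, a gap of 10.7 times. In all 11 mRNAs control replicate 2 was above control replicate 1.

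**Figure D2:**
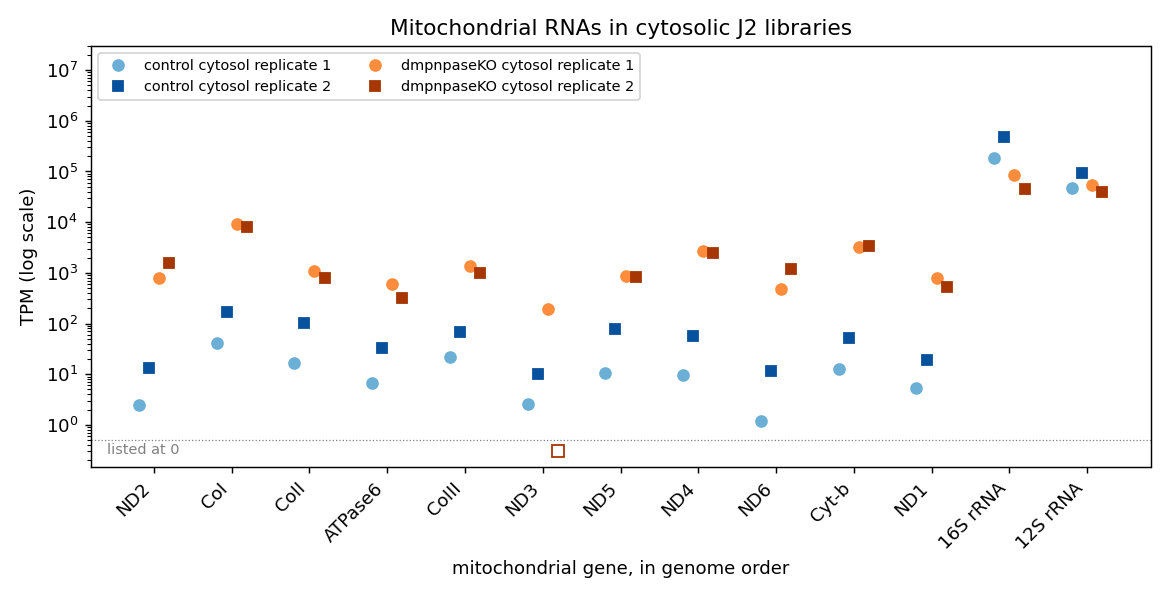
TPM (log axis) of the 11 mitochondrial mRNAs and both mitochondrial rRNAs in the 4 cytosolic libraries, 1 symbol for each library, with a value listed at 0 drawn open under the dotted line. For 10 of the 11 mRNAs both dmpnpaseKO libraries lie above both controls, ND3 is at 0 in dmpnpaseKO replicate 2, and 16S rRNA lies lower in both dmpnpaseKO libraries.

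Both dmpnpaseKO libraries were above both controls for 10 of the 11 mitochondrial mRNAs. Over all 475 genes tested this order was found in 8.63% (41 genes). A gene at 0 in dmpnpaseKO replicate 2 cannot have this order, and 408 of the 443 nuclear-encoded genes tested were at 0 there. In dmpnpaseKO replicate 1 alone all 11 mRNAs were above both controls, and so were 72.4% of all genes tested. The log2 fold changes of the 10 mRNAs ran from 3.89 for CoII (standard error 2.01) to 6.76 for ND2 (standard error 2.46), and the median over all 11 was 5.27, against 0.30 over all genes tested. In the limma fit to all 8 libraries, none of the mRNAs passed an adjusted p of 0.05. Their adjusted p was 0.292 or more. Before adjustment, 7 of the 11 were under 0.05, against 9.89% of all genes tested (47 of 475). Median-of-ratios scaling took the median of the 11 to 2.46 and that of all genes tested to 0.02.

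A share within the mitochondrial mRNAs depends on neither the scaling nor the pseudocount, and on this scale the mRNAs were not ordered alike. CoI made up 31.2% and 27.6% of the summed mRNA in controls against 42.7% and 40.1% in dmpnpaseKO larvae. Cyt-b made up 9.83% and 8.45% against 15.4% and 16.6%. ND4 made up 7.32% and 9.26% against 12.9% and 12.1%. The shares of ND2 (1.91% and 2.17% against 3.70% and 7.94%) and ND6 (0.911% and 1.90% against 2.29% and 6.05%) were also higher in both dmpnpaseKO libraries.

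A matching set of 5 mRNAs had lower shares in both dmpnpaseKO libraries. CoII made up 12.9% and 16.5% in controls against 5.22% and 3.98% in dmpnpaseKO larvae. CoIII made up 16.6% and 11.3% against 6.30% and 4.85%. ND5 made up 8.09% and 12.7% against 4.01% and 4.14%. These 3 mRNAs therefore had higher TPM but a smaller part of the mitochondrial mRNA. ATPase6 had 5.25% and 5.43% against 2.78% and 1.59%, ND3 had 1.97% and 1.62% against 0.930% and no detection, and ND1 overlapped between genotypes (4.09% and 3.08% against 3.67% and 2.60%). In dmpnpaseKO replicate 2 ATPase6, ND1 and CoII stood at 3.48, 7.91 and 8.84 steps, so their shares in that library rest on few steps. Shares add up to a whole, so a higher share of one mRNA lowers the others. With 2 libraries against 2 the exact two-sided permutation test gives no p below 0.33, whatever the gap.

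The shares did not divide along the respiratory complexes. CoI had a higher share and its partners CoII and CoIII lower ones, and ND2, ND4 and ND6 had higher shares and ND5 a lower one. Summed over 6 mRNAs, complex I took 24.3% and 30.7% in controls against 27.5% and 32.9% in dmpnpaseKO larvae, which overlap. Complex IV took 60.6% and 55.4% against 54.3% and 49.0%. CoII, ATPase6, CoIII and ND3 are neighbours on the plus strand between positions 3083 and 5961, and all 4 had lower shares, while CoI, which lies next to CoII on the same strand, had a higher one. In the mitochondrial fraction the shares of CoI (24.2% and 29.9% in controls, 18.8% and 47.9% in dmpnpaseKO) and CoII (13.3% and 12.5% against 14.8% and 5.52%) overlapped between genotypes. Cyt-b made up 11.6% and 8.18% in control mitochondria, and both dmpnpaseKO values lay between these. Whether the shares differ between the fractions was not tested.

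**Figure D3:**
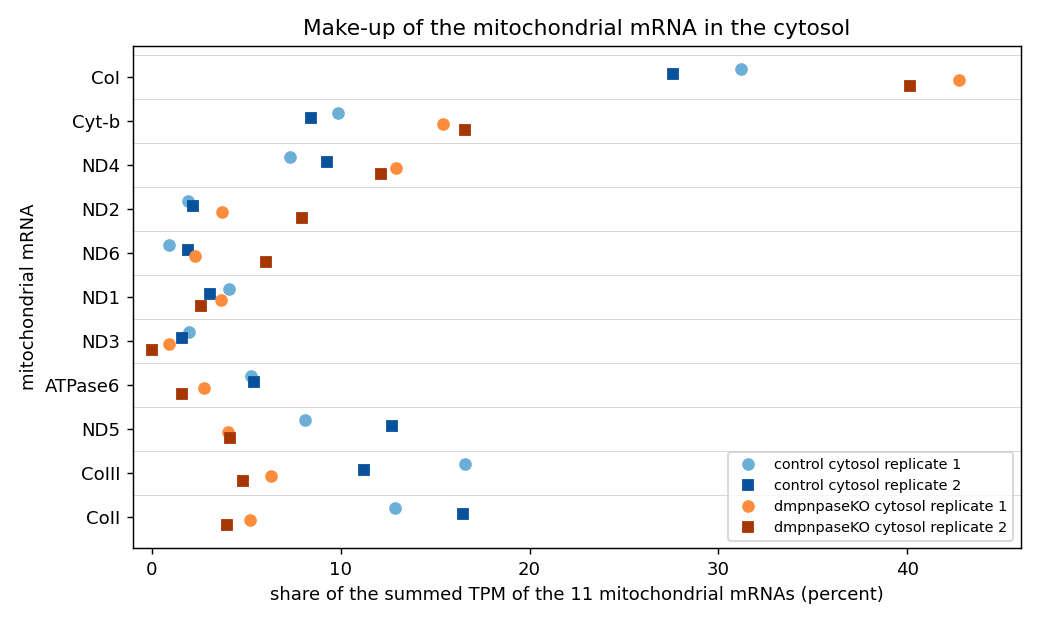
Share of each mitochondrial mRNA in the summed TPM of the 11 (percent), with 1 symbol for each cytosolic library. Shares of CoI, Cyt-b, ND4, ND2 and ND6 are higher in both dmpnpaseKO libraries, those of CoII, CoIII, ND5, ATPase6 and ND3 are lower, and ND1 overlaps.

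The rRNAs of the mitochondrial ribosome had another order than the mRNAs. 16S rRNA (12735 to 14058, minus strand) had 180468 and 479414 TPM in controls against 85065 and 45594 TPM in dmpnpaseKO larvae, so the genotypes did not overlap. 12S rRNA (14131 to 14916, minus strand) had 47807 and 92038 TPM against 53370 and 39426 TPM, which overlap. Their log2 fold changes were −2.83 and −1.12, and neither passed the threshold (limma, adjusted p = 0.292 and 1.0). Summed mRNA came to 0.0570% and 0.107% of summed mitochondrial rRNA in controls (mean 0.0821% ± 0.0355, SD, n = 2) and to 15.4% and 23.7% in dmpnpaseKO larvae (mean 19.5% ± 5.88, SD, n = 2). The difference is larger than the spread between replicates, and the exact permutation test gave its smallest possible p of 0.33. Outside rRNA, mitochondrial mRNAs took 22.6% and 41.9% of TPM in controls against 93.1% in each dmpnpaseKO library.

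The rRNA copies that served as the reference for scaling were not ordered alike. After scaling, both 18S copies were lower in both dmpnpaseKO libraries. On unscaled TPM 18SrRNA-Psi:CR41602 overlapped between genotypes, with 277597 and 162891 TPM in controls against 173315 and 131508 TPM in dmpnpaseKO larvae. The 28S copy 28SrRNA-Psi:CR45855 was higher, with 66166 and 68661 TPM against 190979 and 283781 TPM. Their log2 fold changes were −1.08 and 1.20 (limma, adjusted p = 0.292 for both), and median-of-ratios scaling turned that of 28SrRNA-Psi:CR45855 to −1.73. Reads can be divided among copies of one rRNA, so a single copy is uncertain.

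The 39 nuclear-encoded genes of dmpnpaseKO replicate 2 were few, and most sat near its detection step. That step was taken from 9 of these same genes, so their nearness to it follows in part from its definition. Of the 39, 35 were above 0.01 TPM there, from 2.08 TPM for shot to 226 TPM for FBgn0261593. The other 4 (Pif1B, Abl, luna and Snoo) had at most 0.00121 TPM. A length was annotated for 33 of the 35, and by the shortest transcript 31 of these lay within 2 steps. The other 2 were Arc1 at 2.29 steps and apolpp at 4.52 steps. By the longest transcript 7 genes reached 2 steps, with Hrb27C at 5.65, Ntf-2 at 5.16, chinmo at 2.83 and CycG and rin at 2.31 besides these. Of the 39, 34 were higher in replicate 2 than in replicate 1. Among the 100 highest nuclear-encoded genes of replicate 1 were 7 of them, and their median rank there was 700. Both dmpnpaseKO libraries were above both controls for 26 of the 39, 3 were below, and 10 overlapped, which the choice of the genes by their value in replicate 2 favours.

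**Figure D4:**
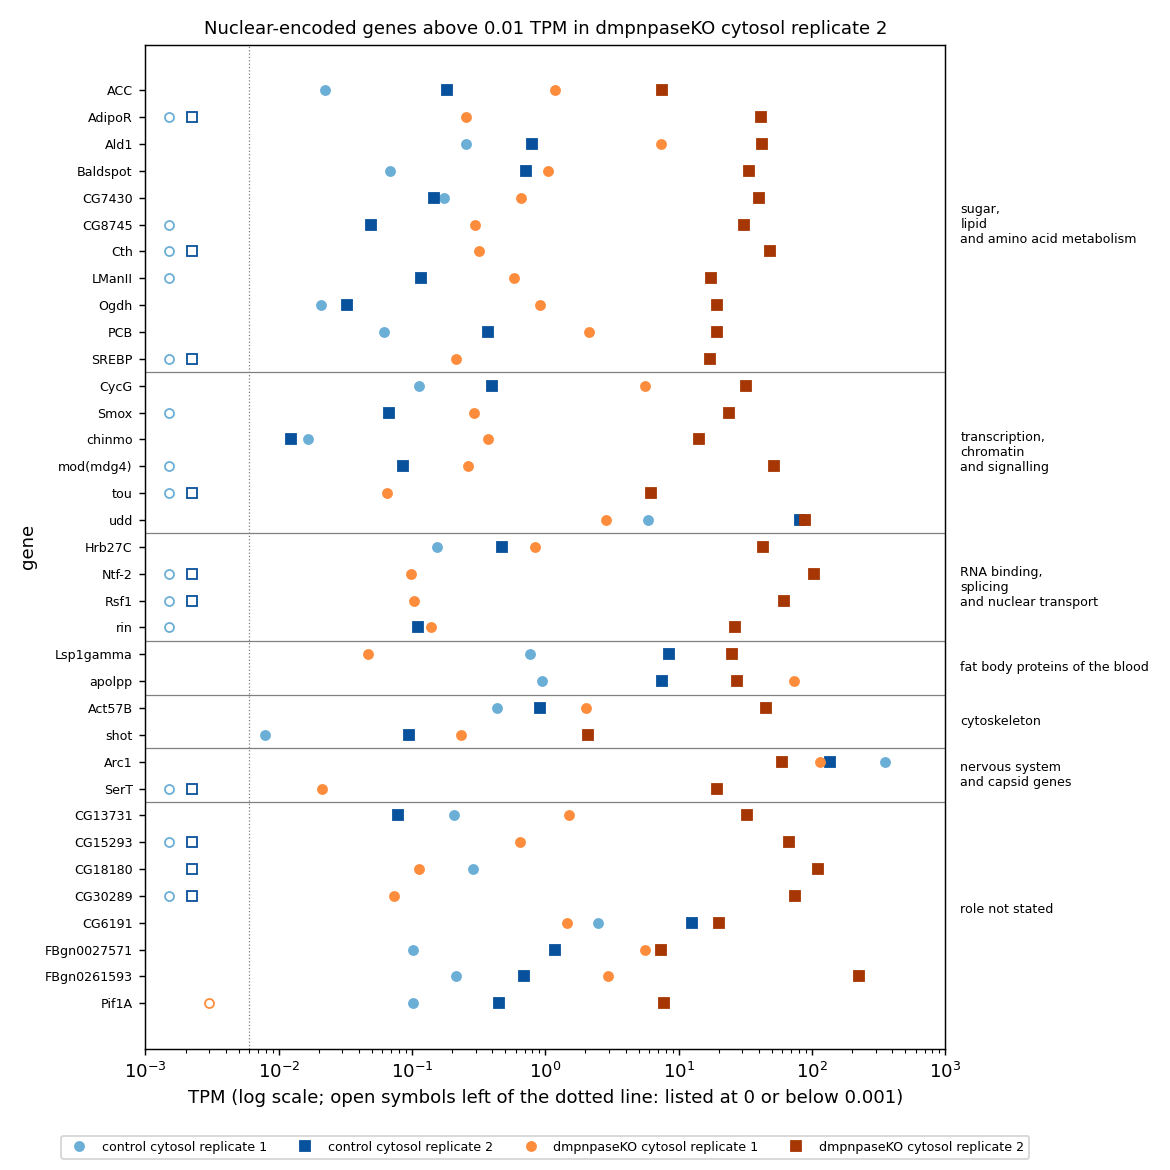
TPM (log axis) in the 4 cytosolic libraries of the 35 nuclear-encoded genes above 0.01 TPM in dmpnpaseKO replicate 2, ordered by function, with open symbols for values listed at 0 or below 0.001. In most genes dmpnpaseKO replicate 2 is far to the right of the other libraries, while Arc1 and apolpp have similar levels in both dmpnpaseKO libraries.

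By function, the largest named group comprised 11 genes of sugar, lipid and amino acid metabolism, with 318 TPM summed in dmpnpaseKO replicate 2 and 15.02 TPM in replicate 1, against 0.600 and 2.41 TPM in controls. Ald1, the glycolytic aldolase, had 0.252 and 0.788 TPM in controls against 7.41 and 42.4 TPM in dmpnpaseKO larvae, and ranked 17 among the nuclear-encoded genes of replicate 1. PCB, which encodes pyruvate carboxylase, had 0.0619 and 0.372 TPM against 2.14 and 19.4 TPM. In both genes each dmpnpaseKO library lay above both controls. A pair of mitochondrial dehydrogenase subunits was present, namely Ogdh (0.0206 and 0.0324 TPM against 0.911 and 19.4 TPM), the first component of the oxoglutarate dehydrogenase complex, and CG7430 (0.174 and 0.146 TPM against 0.652 and 39.95 TPM), dihydrolipoamide dehydrogenase. Genes of lipid metabolism were ACC, which encodes acetyl-CoA carboxylase (0.0223 and 0.184 TPM against 1.19 and 7.53 TPM), Baldspot, which encodes a fatty acid elongase, and SREBP, a transcription factor of lipid synthesis. The remaining members were Cth, of cysteine synthesis, the receptor gene AdipoR, the lysosomal mannosidase gene LManII and CG8745. In 10 of the 11 both dmpnpaseKO libraries lay above both controls after scaling, Baldspot being the exception. The order is found in 8.63% of all genes tested, and nothing is read from the count, because a gene had to be above 0 in dmpnpaseKO replicate 2 to be listed.

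A group of 9 genes belonged to transcription, chromatin and signalling. CycG, a cyclin gene, had 0.113 and 0.400 TPM in controls against 5.59 and 32.3 TPM in dmpnpaseKO larvae and ranked 30 in replicate 1. The chromatin gene mod(mdg4) had 0 and 0.0857 TPM against 0.262 and 52.1 TPM, and chinmo, a BTB zinc finger gene, had 0.0165 and 0.0124 TPM against 0.371 and 14.2 TPM. Smox, a Smad of activin signalling, and tou, a chromatin remodelling gene, were below 0.3 TPM in replicate 1. In 5 of the 9 genes each dmpnpaseKO library exceeded both controls, an order found in 8.63% of all genes tested. Nothing is read from this count either, because each gene had to be above 0 in dmpnpaseKO replicate 2 to be listed. The kinase gene Abl overlapped (0.144 and 0.296 TPM against 0.255 and 0.00038 TPM). The genes luna and Snoo were below both controls, but had only 5e-06 and 4e-06 TPM in dmpnpaseKO replicate 2, far under its step. In dmpnpaseKO replicate 1 Snoo had 0.2514 TPM, nearly that of control replicate 1 (0.2519 TPM), so its order carries no difference. The remaining gene was udd, which encodes a protein of RNA polymerase I transcription, with 5.87 and 81.0 TPM in controls against 2.87 and 88.5 TPM in dmpnpaseKO larvae. Its values differed more within a genotype than between genotypes. CG6191 had the same order of libraries, with 2.48 and 12.7 TPM in controls against 1.45 and 20.2 TPM. In the mitochondrial fraction udd stayed at or below 0.563 TPM in all 4 libraries.

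Among genes of RNA binding, splicing and nuclear transport were Hrb27C, which encodes an hnRNP (0.155 and 0.476 TPM against 0.831 and 42.6 TPM), Rsf1, a repressor of splicing (0 and 0 against 0.104 and 61.6 TPM), rin, which encodes the fly G3BP of stress granules (0 and 0.111 against 0.139 and 26.6 TPM), and Ntf-2, the import factor for Ran (0 and 0 against 0.0987 and 104 TPM). For Rsf1 and Ntf-2 replicate 1 held close to the smallest amounts it registered. Cytoskeletal genes were Act57B, an actin of larval muscle (0.435 and 0.904 TPM against 2.03 and 45.4 TPM), and shot, a spectraplakin (0.00791 and 0.0941 TPM against 0.233 and 2.08 TPM). The serotonin transporter gene SerT had 0 in both controls, 0.0211 TPM in dmpnpaseKO replicate 1 and 19.4 TPM in replicate 2. For 9 genes no role is stated here. The second highest nuclear-encoded gene outside rRNA in dmpnpaseKO replicate 2, CG18180, is among them. It had 0.286 and 0 TPM in controls, 0.113 TPM in dmpnpaseKO replicate 1 and 110.1 TPM in replicate 2, which is 1.60 steps. Of these 9, 2, FBgn0261593 and FBgn0027571, carried no symbol in the tables used and so entered no gene list. Pif1A and Pif1B share their coordinates, so the division of reads between them is uncertain.

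Arc1 and apolpp were the nuclear-encoded genes, of those tested, whose product by the shortest transcript was above the step of replicate 2 in dmpnpaseKO replicate 1. Arc1 (2R, 14357927 to 14360297, minus strand) encodes a protein that forms capsids around its own mRNA. It was the highest nuclear-encoded gene of dmpnpaseKO replicate 1, and the values were 350 and 137 TPM in controls against 115.4 and 59.9 TPM in dmpnpaseKO larvae. Both dmpnpaseKO libraries were thus below both controls, in contrast to the mitochondrial mRNAs, with a log2 fold change of −1.97 (standard error 1.82, limma adjusted p = 1.0). In the mitochondrial fraction Arc1 was lower, at 1.72 and 3.33 TPM in controls against 8.56 and 9.93 TPM in dmpnpaseKO larvae, with the dmpnpaseKO libraries above the controls. The genotype effect did not differ detectably between the fractions (limma interaction −3.57, adjusted p = 0.230).

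The gene apolpp (chromosome 4, 1060969 to 1077273, plus strand) encodes apolipophorin, the main lipid carrier of the haemolymph, which the fat body secretes. It had 0.947 and 7.49 TPM in controls against 73.4 and 27.3 TPM in dmpnpaseKO larvae, so both dmpnpaseKO libraries were above both controls. The log2 fold change was 2.96 (standard error 1.52, limma adjusted p = 0.657). In the mitochondrial fraction the values were 3.82 and 3.10 TPM against 33.9 and 26.1 TPM.

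Across all genes tested, limma called 0 of 475 in the cytosol (0.0%), with 47 at an unadjusted p under 0.05. The filter required a mean of 1 TPM over all 8 libraries, and 408 of the 443 nuclear-encoded genes that passed it were at 0 in dmpnpaseKO replicate 2. The median log2 fold change of the 443 was 0.29, and without that library it was 0.66, with 350 of the 443 above 0. The mitochondrial median was then 5.60, and 0 nuclear-encoded genes exceeded it. The fit without that library also called 0 genes (smallest adjusted p = 0.0566, limma), with 156 at an unadjusted p under 0.05. The lone dmpnpaseKO library is there assumed to vary like the other groups. Leaving out any other cytosolic library gave calls, 2 higher and 11 lower without control replicate 1, 2 higher without control replicate 2, and 27 higher and 1 lower without dmpnpaseKO replicate 1.

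Both dmpnpaseKO libraries were above both controls in 25 of the 443 nuclear-encoded genes and below in 21, and over all 475 genes the latter order was found in 5.26%. The 25 were all detected in replicate 2, and 19 of the 21 were at 0 there. The largest log2 fold changes among the 25 belonged to genes described above and to CG15293, CG30289 and CG13731. FBgn0261593 led with 4.04 (0.213 and 0.687 TPM against 2.95 and 226 TPM), followed by Ntf-2 with 3.32, Ald1 with 3.31, CG15293 with 3.29 and CycG with 3.28. All had an adjusted p of 0.292 in limma, and these changes hold the replicate 2 value by which the genes were listed. Without dmpnpaseKO replicate 2 the log2 fold change of Ntf-2 was 0.13, that of Rsf1 0.13, that of CG30289 0.10 and that of Cth 0.38. It was 1.18 for FBgn0261593, 0.68 for CG15293, 1.03 for CG13731, 2.18 for Ald1 and 2.16 for CycG.

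Among the 10 lowest log2 fold changes of genes with both dmpnpaseKO libraries below both controls were 3 larval serum protein genes and 4 cuticle genes. The larval serum proteins are storage hexamerins that the fat body makes late in larval growth. Lsp1beta (2L, 898500 to 901316, plus strand) had 1.82 and 21.8 TPM in controls, 0.0455 TPM in dmpnpaseKO replicate 1 and 0 in replicate 2. Lsp1alpha had 0.359 and 4.96 TPM in controls against 0 in both dmpnpaseKO libraries. Lsp2 had 0.224 and 2.04 TPM in controls and was also at 0 in both. In control libraries these genes were between 8.79 and 499 times the detection step, and in dmpnpaseKO replicate 1, whose step was nearly that of control replicate 1, they were at 2.05 times or not detected. The log2 fold changes of Lsp1beta, Lsp1alpha and Lsp2 were −3.39, −1.89 and −1.27 (limma, adjusted p = 0.292, 0.317 and 0.416). Without control replicate 2 they were −1.47, −0.45 and −0.29. For a transcript of the length of Lsp1beta the step of dmpnpaseKO replicate 2 equals 22.6 TPM, above both control values, so a 0 in that library carries no difference. The remaining subunit gene, Lsp1gamma, had 0.764 and 8.40 TPM in controls, 0.0470 TPM in dmpnpaseKO replicate 1 and 25.1 TPM in replicate 2, the last at 1.01 times the step. In the mitochondrial fraction, whose libraries are separate, Lsp1beta had 20.8 and 14.0 TPM in controls against 0.102 and 0.0590 TPM in dmpnpaseKO larvae.

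Not all fat body genes had this order. Adh, the alcohol dehydrogenase of the larval fat body, had 0.190 and 2.02 TPM in controls against 22.3 TPM in dmpnpaseKO replicate 1, and was not detected in replicate 2. Of the 6 fat body genes tested, 2 (apolpp and Adh) were above both controls in dmpnpaseKO replicate 1 and 4, the larval serum proteins, were below. Over all genes tested, that library was above both controls in 72.4% and below both in 6.11%. The median log2 fold change of the 6 fat body genes was −0.70, and −1.58 without dmpnpaseKO replicate 2. In a bulk library, fewer cells of a type and less RNA for each cell cannot be told apart.

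Cuticle proteins are made by the epidermis. Cpr65Ax2 had the lowest log2 fold change of all nuclear-encoded genes with this order, −3.62 (limma, adjusted p = 0.292), with 2.26 and 40.5 TPM in controls, 0.654 TPM in dmpnpaseKO replicate 1 and 0 in replicate 2. Lcp3 had 1.06 and 3.24 TPM in controls against 0 in both dmpnpaseKO libraries. Lcp1 had 0.570 and 1.58 TPM and was likewise at 0 in both. Lcp65Ab1 (0.791 and 3.25 TPM against 0.334 TPM and 0) and Lcp4 (0.463 and 1.18 TPM against 0.204 TPM and 0) completed the 5 of 13 tested cuticle genes with both dmpnpaseKO libraries below both controls, an order found in 5.26% of all genes tested. All 5 were at 0 in dmpnpaseKO replicate 2, whose step for their lengths was 58.3 TPM or more, above every control value. The order thus rests on dmpnpaseKO replicate 1 alone, which was below both controls in 6.11% of all genes tested. Other cuticle genes were ordered differently, since Lcp65Ag1 (0 and 0.331 TPM against 0.814 TPM) and Lcp65Ag2 (0 and 0 against 0.461 TPM) were above both controls in dmpnpaseKO replicate 1. The median log2 fold change over the 13 was −0.10, and −0.03 without dmpnpaseKO replicate 2. Without control replicate 2 the log2 fold change of Cpr65Ax2 was −1.37, that of Lcp3 −1.05 and that of Lcp1 −0.66. Expressed in steps, the controls of Lcp1 and Lcp3 were at 5.28 to 14.6. In the mitochondrial fraction Lcp3 had 37.4 and 17.4 TPM in controls against 0.555 and 0.497 TPM in dmpnpaseKO larvae, whereas Cpr65Ax2 had 4.84 and 0.794 TPM against 37.5 and 5.20 TPM. Outside these lists, luna, a Krüppel-like factor gene, had 0.592 and 12.5 TPM in controls, 0 in dmpnpaseKO replicate 1 and 5e-06 TPM in replicate 2. Scgdelta, a sarcoglycan gene, had 0.433 and 11.2 TPM against 0.191 TPM and 0. Their log2 fold changes were −2.62 and −2.35, and −0.68 and −0.41 without control replicate 2.

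**Figure D5:**
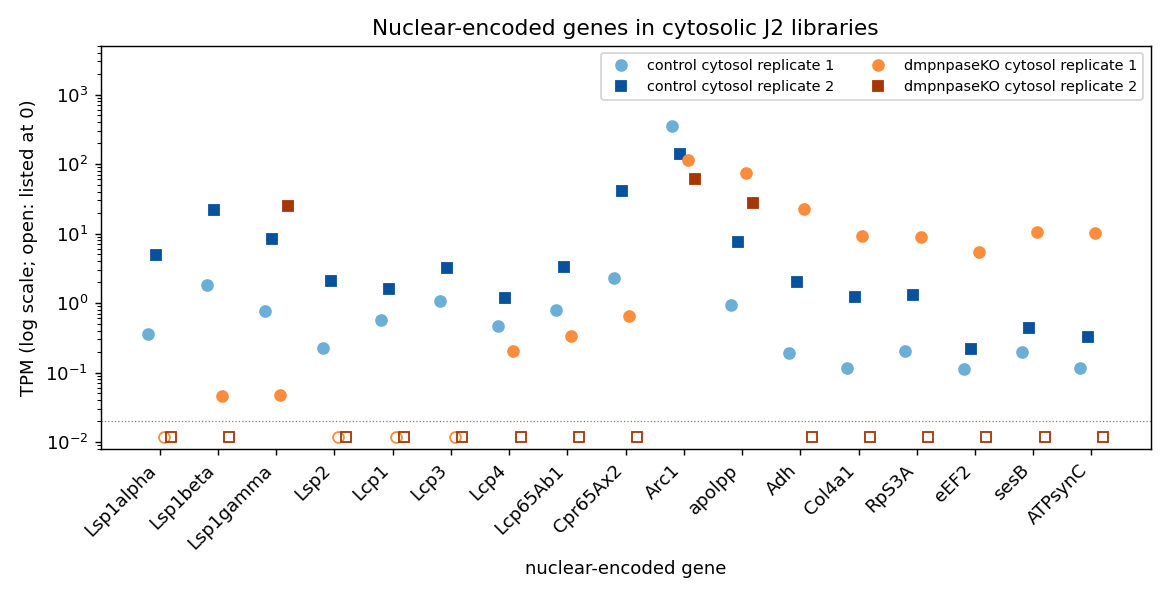
TPM (log axis) of 17 named nuclear-encoded genes in the 4 cytosolic libraries, with open symbols under the dotted line for values listed at 0. The larval serum and cuticle genes on the left lie lower in dmpnpaseKO replicate 1 than in both controls, and the genes from apolpp to ATPsynC on the right lie higher there, most of them not detected in dmpnpaseKO replicate 2.

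For most other nuclear-encoded genes, dmpnpaseKO replicate 1 was the one informative dmpnpaseKO library, and its values have no replicate check. It was above both controls in 319 of the 443 nuclear-encoded genes and below both in 25. Over all 475 genes tested it was above both in 72.4% and below both in 6.11%, the background for the lists that follow. The filter took in the mitochondrial libraries, so genes could pass by their dmpnpaseKO values there. Nuclear-encoded genes outside rRNA took 1.18% and 0.586% of TPM in dmpnpaseKO mitochondria against 0.132% and 0.0755% in control mitochondria. With the filter on the cytosolic mean 108 nuclear-encoded genes remained. The counts therefore describe genes chosen in part by dmpnpaseKO values, and nothing is read from them. Cytosolic ribosomal protein genes were above both controls in 74 of 75 in dmpnpaseKO replicate 1. Summed over the 88 genes found by symbol, they had 9.70 and 18.5 TPM in controls, 251 TPM in dmpnpaseKO replicate 1 and 0 in replicate 2. A gene without a symbol could not enter a list, so these sums leave such genes out. Single members were low, as in RpS3A with 0.202 and 1.32 TPM against 8.83 TPM and in RpL41 with 2.66 and 0 TPM against 14.1 TPM. Over the 75 genes the log2 fold change had a median of 0.73, and 1.62 without dmpnpaseKO replicate 2, beside 0.30 and 0.70 over all genes tested. The 4 translation elongation and initiation factors tested were all higher, led by eEF2 with 0.114 and 0.216 TPM against 5.43 TPM.

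Nuclear genes for mitochondrial proteins mostly had the same order. Of 30 genes of the respiratory chain and ATP synthase, 24 were above both controls in dmpnpaseKO replicate 1, and their median log2 fold change of 0.30 equalled that of all genes tested. ATPsynC, the ring subunit of ATP synthase, had 0.117 and 0.320 TPM in controls against 10.1 TPM in dmpnpaseKO replicate 1, and blw, the alpha subunit, had 0.0420 and 0.462 TPM against 6.23 TPM. The carrier genes sesB, the ADP/ATP translocase (0.197 and 0.441 TPM against 10.4 TPM), and Mpcp2, the phosphate carrier (0.358 and 0.290 TPM against 7.37 TPM), were the highest of 4 tested, all 4 above both controls. The summed TPM of the nuclear respiratory chain genes was 0.696 and 7.44 in controls against 51.7 in dmpnpaseKO replicate 1. The 3 mitochondrially encoded complex IV mRNAs alone summed to 78.9 and 339 TPM in controls against 11550 TPM in that library. The genes of mitochondrial ribosomal proteins were sparser, with 0 and 2 of 72 above 0 in controls against 20 in dmpnpaseKO replicate 1, and none was tested.

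Chaperone genes were above both controls in dmpnpaseKO replicate 1 in all 7 tested. Hsc70-4, a constitutive chaperone, had 0.235 and 0.177 TPM in controls against 6.38 TPM there, and the small heat shock gene Hsp22 had 0.120 and 0 against 3.09 TPM. Of 8 glycolytic genes 6 were above both controls, among them Gapdh1 with 0.140 and 0 against 3.40 TPM. The 3 basement membrane genes tested were all above both controls, led by Col4a1 with 0.116 and 1.23 TPM against the 9.26 TPM given above. Muscle genes were above both controls in 3 of 10 and gut digestive enzymes in 13 of 21. Whether these parts differ from the 72.4% over all genes tested was not tested. Cuticle markers of the epidermis were above 0 for 13, 9, 14 and 0 of 125 genes in control replicates 1 and 2 and dmpnpaseKO replicates 1 and 2, and salivary glue genes reached at most 0.323 TPM (Sgs5 in control replicate 2).

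The genes that would act on the RNA itself were too low to test. AGO2, the Argonaute of antiviral RNA interference, had 0.0170 and 0.511 TPM in controls against 0.149 TPM in dmpnpaseKO replicate 1. Dcr-2, the nuclease that cuts long double-stranded RNA, had 0 and 0.083 TPM against 0.053 TPM, and r2d2, its partner, had 0 and 0.255 TPM against 0.046 TPM. In each of the 3 genes dmpnpaseKO replicate 1 lay between the controls, and none was detected in replicate 2. Of the 9 genes of this pathway 4 and 5 were above 0 in controls against 7 in dmpnpaseKO replicate 1. Of the 8 genes of mitochondrial RNA turnover and transcription only PolrMT, Suv3 and mTTF were above 0, in dmpnpaseKO replicate 1 and at no more than 0.0507 TPM. Of 12 antimicrobial peptide genes AttB alone was above 0, with 0.182 TPM in dmpnpaseKO replicate 1. The hairpin RNAs, nuclear transcripts that fold back into long double strands, were listed by 3 genes. Of these hpRNA:CR32207 was the highest, with 0 and 10.1 TPM in controls, 0.332 TPM in dmpnpaseKO replicate 1 and 0 in replicate 2, so dmpnpaseKO replicate 1 lay between the controls. In that library hpRNA:CR33940 was the highest, with 1.35 TPM against 0 and 0.157 TPM in controls, and hpRNA:CR32205 was at 0 against 0.128 and 3.14 TPM. The 3 hairpin RNAs thus had 3 different orders, and none was detected in dmpnpaseKO replicate 2.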

How the data were processed

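Reads were quasi-mapped by the authors with salmon 0.11.3 to BDGP6 cDNA of Ensembl release 94, and the deposited TPM are unscaled, with 1 row for each gene. The summing of transcripts into genes is not given in the sources used here. 0 value columns had no library. Here each library was divided by its mean over the 8 rRNA pseudogenes of the methods, and log2(scaled TPM + 1) was fitted with limma 3.58.1 in R 4.3.3 (4 group means over 8 libraries, intensity trend, Benjamini-Hochberg, threshold 0.05) for genes with a mean TPM of at least 1. The script was tested on simulated data. Symbols, positions and transcript lengths were matched for 13746 of 13970 genes (Ensembl release 115, same BDGP6 assembly). Detection steps use these lengths, since effective lengths were not given. TPM carry no depth, so no counting intervals are given. Figures used matplotlib 3.10.9.

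Named are all mitochondrial genes, every nuclear-encoded gene above 0 in dmpnpaseKO cytosol replicate 2, the 10 highest and 10 lowest log2 fold changes in which both dmpnpaseKO libraries lie on the same side of both controls, and up to 4 leading genes of each list, with examples of the reference pseudogenes. CG6191 and the multiples of the step were added after values were seen. Members and lists were chosen with earlier results of these data known, and the functional groups of the 39 genes were assigned after their values were seen. bsf was not analysed here.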

Additional observations from a re-analysis of the deposited data

Results flagged for a closer look

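The interaction of genotype and fraction was called by limma for 148 of the 475 genes tested (31.2%), at an adjusted p under 0.05. All 148 were at 0 in dmpnpaseKO cytosol replicate 2, where a 0 is read as not detected. With those zeros taken as missing, none was called, so the count is not read as a difference between the fractions. Among the genes named for the cytosol, Cpr65Ax2 was called, with an interaction of −5.94 on the log2 scale (limma, adjusted p = 0.0396). It had 2.26 and 40.5 TPM in control cytosol and 0.654 and 0 TPM in dmpnpaseKO cytosol, and 4.84 and 0.794 TPM in control mitochondria against 37.5 and 5.20 TPM in dmpnpaseKO mitochondria. For the mitochondrial mRNAs the smallest adjusted p of the interaction was 0.294.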

How the results depend on the processing

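No gene was called in the cytosol in the reported fit. The counts of genes higher and lower were 28 and 3 on unscaled TPM, 11 and 3 with a pseudocount of 0.1, 6 and 11 under median-of-ratios scaling, and 2 and 1 with the filter on the cytosolic mean. Among genes above 0 in all 4 cytosolic libraries 6 were higher, all mitochondrial mRNAs, but this filter keeps genes by their value in dmpnpaseKO replicate 2 and leaves out ND3. Leaving out 1 library gave from 0 to 27 higher and from 0 to 11 lower. The median of the mitochondrial mRNAs stayed above 0 under every alternative run, with 2.46 under median-of-ratios scaling and 4.03 to 6.51 leaving out 1 library. The nuclear-encoded median was 0.92 with the filter on the cytosolic mean, 2.38 among genes above 0 in all 4 libraries, and −0.13 to 0.66 leaving out 1 library. ND3 turned negative under median-of-ratios scaling (−1.25), summed nuclear-encoded TPM (−0.41), a pseudocount of 0.1 (−0.70), without control replicate 1 (−0.48) and without dmpnpaseKO replicate 1, with −3.05 to 4.49 leaving out 1 library, and none of the other mitochondrial genes or of the 20 genes with the highest and lowest log2 fold changes turned. Of the 35 genes tested among those above 0 in dmpnpaseKO replicate 2, 5 changed sign under an alternative, with ranges of −0.04 to 6.42 for CG18180, −3.23 to 1.02 for CG6191, −2.80 to 2.10 for Lsp1gamma, −0.59 to 2.46 for Pif1A and −3.81 to 1.29 for udd. The count of 148 genes called between fractions was 0 on unscaled TPM, with summed nuclear-encoded TPM and with the filter on the cytosolic mean. It was also 0 among genes above 0 in all 4 cytosolic libraries, with zeros of dmpnpaseKO replicate 2 as missing, and without the trend. It was 2 under median-of-ratios scaling, 4 and 303 with pseudocounts of 0.1 and 10, 2167 without a filter, and 1 to 390 leaving out 1 library. Where other genes or libraries entered, the counts follow in part from that, and otherwise the cause was not tested.

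The deviations of same-numbered cytosolic libraries had a correlation of −0.0126 over 2 pairs. This cannot decide whether the numbers pair them, because 408 of the 443 nuclear-encoded genes tested were at 0 in dmpnpaseKO replicate 2. The reported fit took no pairing. With the replicate block limma called 0 genes in the cytosol (smallest adjusted p = 0.0596) and 125 between fractions. The ratio of mitochondrial mRNA to rRNA was higher in dmpnpaseKO larvae by 19.5 percentage points, and by 15.3 to 23.6 leaving out 1 library.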
